A study of Zea mays with 4 samples.

Results

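Ethanol fermentation genes and the alternative oxidase gene aox3 were examined in maize kernels that cannot make starch at the normal rate and in wild-type kernels. The members were 5 genes, the pyruvate decarboxylase genes pdc2 and pdc3, the alcohol dehydrogenase genes adh1 and adh2, and aox3, of 1108 genes named on the array. They were found by symbol or synonym and were read by 8 of 17620 maize probe sets, of which 6 passed a filter on low values, so that each gene kept at least 1 probe set. The genes were chosen by their mutant against wild-type differences in these same arrays, so those differences are given as a description without a test. The study measured total RNA of kernels 35 days after pollination with Affymetrix maize arrays, each sample on its own 1-colour array. The mutant group held 2 samples carrying the bt2-H2328 allele and the wild-type group held 2 samples. All plants came from an untreated greenhouse stand, and the labelled RNA amount was 20 µg, except in mutant 2, with 17 µg. The labels name neither the genetic background nor whether a sample pooled kernels or plants, so the spread between samples may be technical.

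When sugar is broken down to pyruvate, the cell can pass the carbon on in several ways. Pyruvate decarboxylase splits carbon dioxide from pyruvate to give acetaldehyde, and alcohol dehydrogenase reduces acetaldehyde to ethanol, which returns the NAD that glycolysis needs when oxygen is short. Alternative oxidase sits in the inner mitochondrial membrane and passes electrons from ubiquinol to oxygen without pumping protons, so that respiration can burn sugar with little ATP formed. Maize adh1 and adh2 are classical genes of the response to flooding, and the interior of a growing cereal endosperm is known to be low in oxygen. The product of bt2 is the endosperm's small subunit of ADP-glucose pyrophosphorylase, which makes the precursor of starch, and the comparison addresses whether other routes of sugar use are induced when that step is blocked.

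Expression is given in log2 units of GCRMA, in which 1 unit is a factor of 2. A log2 value of 4 was used as the lower limit of measurement. The labels were checked on bt2 itself, which read 10.13 and 10.12 in mutants 1 and 2 against 12.67 and 12.64 in wild types 1 and 2. The background is wide, since 43.2% of 10458 kept probe sets had a limma adjusted p of 0.05 or less, 21% higher and 22.1% lower in the mutant. Leaving out mutant 1, mutant 2 and wild type 2 in turn gave 0 calls each time in limma, with 4523, 4617 and 3633 probe sets at an unadjusted p under 0.05, and leaving out wild type 1 gave 1195 calls. The array-wide scale underlies all differences. Bacterial poly-A control RNAs gave more signal in the mutant samples, by a median of 1.2, and centring the arrays on them moves each difference below by -1.23. Arrays of a group correlated at r = 0.98 and 0.986 across probe sets, which are not independent replicates. Among kernel tissue markers, 6 of 8 endosperm genes fell and 3 of 6 embryo genes rose past the same limma threshold. The summed level of the embryo list was 16.77 to 16.84 in the mutants and 16.45 to 16.57 in the wild types, and that of the endosperm list 15.23 to 15.28 and 15.88. Of 4 aleurone genes 2 rose and 1 fell, at summed levels of 11.52 to 11.61 in the mutants and 11.19 to 11.28 in the wild types, and of 3 pericarp and maternal genes 2 fell, at 8.74 to 9.19 and 10.01 to 10.02. In the basal transfer layer, which loads sugar into the kernel, betl4 fell by 2.21 with a limma adjusted p of 0.0122, while betl1, betl3 and meg2, under 4 in both mutants and at 5.62 to 8.14 in the wild types, passed the filter only through the wild types. The summed level of that list was 6.07 to 6.67 in the mutants and 9.01 to 9.78 in the wild types. That sum includes betl1, betl3 and meg2, which could enter only by being higher in the wild types, so it is no separate measure of the tissue. The part of these tissue differences in the values below was not tested, and in whole kernels fewer cells of a type and less RNA per cell cannot be told apart.

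The 5 genes did not move as a block. The pdc2 signal was higher in both mutants and the adh2 signal lower in both. The pdc3 and adh1 signals lay within the spread of their arrays. The aox3 signal was far higher in both mutants, from wild-type values below the limit of 4. The groups did not overlap in 4 of the 6 kept probe sets, against 78.5% of all kept probe sets, a contrast that the choice of genes had already used.

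**Figure D1:**
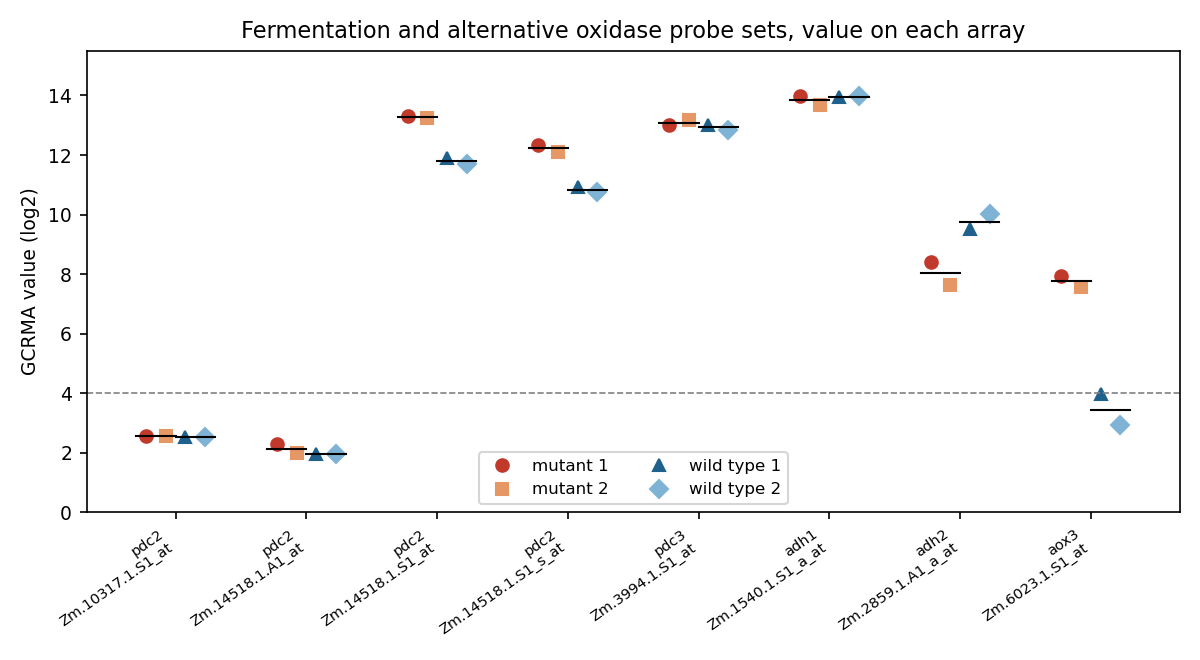
GCRMA value (log2, vertical axis) of each probe set of the 5 genes on each of the 4 arrays, with a black line at each group mean (n = 2) and a dashed line at the limit of 4. The mutant points of pdc2 at 13.32 and 13.25 lie above the wild-type points at 11.9 and 11.69, those of adh2 at 8.42 and 7.65 lie below 9.5 and 10.02, and those of aox3 at 7.95 and 7.58 lie above wild-type points under 4.

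The pyruvate decarboxylase genes stand at the entry to fermentation. Gene pdc2 (LOC542651) had 4 probe sets, of which 2 carried signal. The first of these read 13.32 and 13.25 in mutants 1 and 2 and 11.9 and 11.69 in wild types 1 and 2. The lowest mutant lay 1.35 above the highest wild type, while arrays of the same group differed by 0.07 and 0.21. The mean difference was 1.49 (SE 0.11, n = 2 per group), or 2.81-fold. The other signal-bearing probe set read 12.34, 12.11, 10.91 and 10.77 in the same order, a difference of 1.39 (SE 0.13). These probe sets were designed on 1 expressed sequence and so share a target, and the ID of the other one carries the suffix _s_at, with which Affymetrix marks probes that can also read other genes. A difference as high as that of the first or higher was found in 5.3% of the kept probe sets.

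The remaining probe sets named for pdc2 gave no usable signal. A probe set designed on another pdc2 sequence read 2.56 and 2.57 in the mutants against 2.53 and 2.52 in the wild types. The fourth read 2.29, 1.99, 1.95 and 1.95. All of these values lay under 4, so the 4 probe sets of pdc2 disagree on whether its transcript was measurable, and no fold is given for the low ones. The pdc2 result thus rests on the probe sets of a single expressed sequence. Which pyruvate decarboxylase transcripts each probe set reads was not tested.

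Gene pdc3 (LOC541919), a further pyruvate decarboxylase, did not follow pdc2. Its single probe set read 13 and 13.16 in mutants 1 and 2 and 13.01 and 12.84 in wild types 1 and 2. Mutant 1 lay just under wild type 1, so the groups overlapped, and the difference of 0.16 (SE 0.11) was no larger than the gaps of 0.16 and 0.17 within the groups. Relative to pdc3 on the same arrays, the mutant minus wild-type difference of the first pdc2 probe set was larger by 1.34. Adding a constant to all log2 values of an array does not change this quantity. Quantile normalization is no such shift, and gave 1.6 for that pdc2 probe set and 0.23 for pdc3.

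Alcohol dehydrogenase, which finishes the route to ethanol, was read for both maize genes. Gene adh1 (LOC542363), the main form in seeds and flooded roots, read 13.99 and 13.67 in mutants 1 and 2 and 13.94 and 13.97 in wild types 1 and 2 in its single probe set. Both wild types lay between the mutants. The difference was -0.13 (SE 0.13), less than the gap of 0.32 between the mutants, and it was 0.04 without mutant 2.

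Gene adh2 (LOC542364), the second alcohol dehydrogenase induced by low oxygen, was lower in the mutant. Its single probe set read 8.42 and 7.65 in mutants 1 and 2 and 9.5 and 10.02 in wild types 1 and 2. The highest mutant lay 1.08 below the lowest wild type, and the arrays within the groups stood 0.77 and 0.52 apart. The mean difference was -1.73 (SE 0.33), or 3.31-fold lower, and 5.35% of kept probe sets differed as far downward. Its spread was wide for these arrays, since a mutant gap of 0.77 or more occurred in 6.85% of kept probe sets and a wild-type gap of 0.52 or more in 12% of them. Leaving out each array in turn gave -2.11 to -1.34. On the same arrays, the adh1 difference exceeded that of adh2 by 1.6, and the pdc2 difference exceeded it by 3.22. The alcohol dehydrogenase sequences are close relatives, and whether a probe set of one also reads the other was not tested.

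Alternative oxidase gave the widest difference of the 5 genes. Gene aox3 (LOC542676) was read by 1 probe set, at 7.95 and 7.58 in mutants 1 and 2 and 3.96 and 2.93 in wild types 1 and 2. Both wild-type values lay under 4, wild type 1 only by a little, so the wild-type level is a bound and the signal was at least 13.6-fold higher in the mutant. The measured difference was 4.32 (SE 0.4), and 0.124% of kept probe sets differed as far upward. The lowest mutant stood 3.62 above the highest wild type. The wild types were 1.03 apart, a gap reached by 2.38% of kept probe sets, at values where the array has little resolution. The gene passed the filter only through its mutant arrays and so had to differ. Leaving out each array in turn gave 3.8 to 4.84, and adding 16 on the linear scale before taking logs, which damps low values, gave 3.1.

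The directions of the smaller differences depended on the scale. Centred on the poly-A controls, aox3 differed by 3.09 and adh2 by -2.96, both in the direction they had on the array-wide scale. The pdc2 differences shrank to 0.26 and 0.16 there and stayed above 0, pdc3 turned from 0.16 to -1.08, and adh1 moved to -1.36. Quantile normalization of the deposited values gave 1.6 for the first pdc2 probe set and turned adh1 to 0.14.

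**Figure D2:**
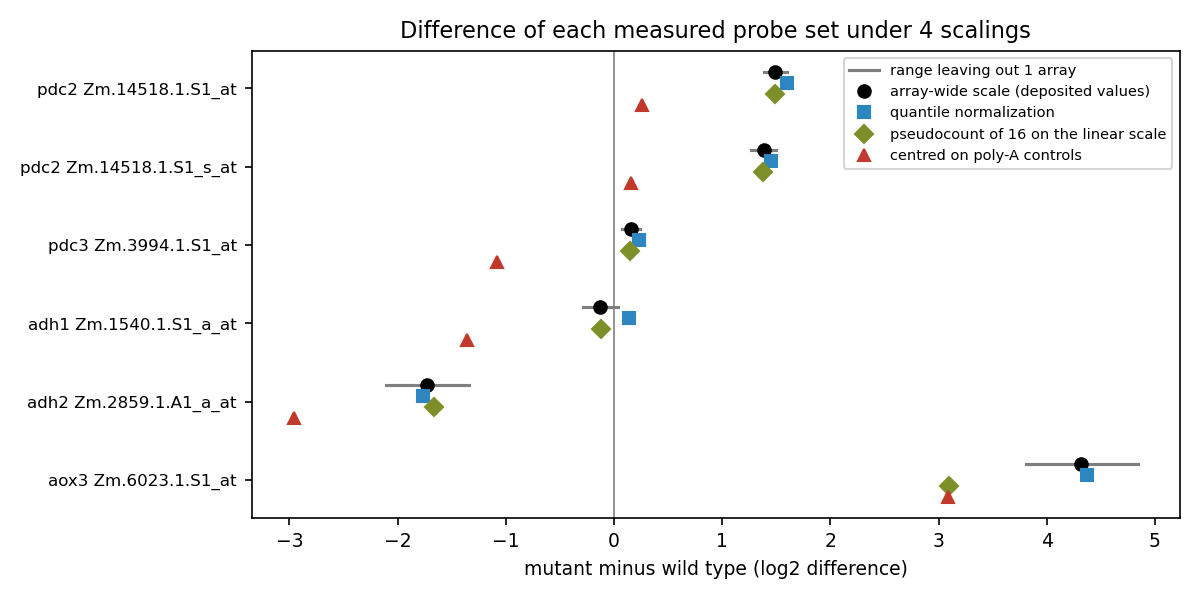
Mutant minus wild-type difference (log2, horizontal axis) of the 6 kept probe sets on the array-wide scale, after quantile normalization, with a pseudocount of 16 and centred on the poly-A controls, with a grey bar for the range when each array is left out in turn. The aox3 points lie at 3.09 or more and the adh2 points at -1.34 or less throughout, bars included, while the pdc3 and adh1 points fall on both sides of 0.

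Gaps between replicate arrays did not run one way across the members. Mutant 1 exceeded mutant 2 by 0.77 in adh2, 0.37 in aox3, 0.32 in adh1 and by 0.07 and 0.23 in the pdc2 probe sets, and lay 0.16 below it in pdc3. The median of this difference over all kept probe sets was -0.03. Mutant 2 is the sample with the smaller labelled RNA amount, and the part of that amount in these gaps was not tested.

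The other alternative oxidase genes of the array were not among the 5 genes and were tested. Their list, like the other lists here, was drawn up with earlier results of these data known, so the test is not independent of that choice. Gene LOC542074, which carries the names aox2 and aox1 and is called aox2 here, read 6.96 and 7.54 in mutants 1 and 2 and 5.35 and 5.78 in wild types 1 and 2. All its values were measurable and the groups did not overlap. It rose by 1.69 (SE 0.28, n = 2 per group), 3.22-fold, with a limma adjusted p of 0.0148. Whether its probe set also reads aox3 transcripts was not tested. Gene LOC542073, named aox1, read 9.62, 9.91, 9.27 and 9.32 in the same order, a difference of 0.47 with a limma adjusted p of 0.058, which did not pass. So 1 of 2 further alternative oxidase genes rose, against 20.9% of 781 genes counted by 1 probe set each. In both of them the mutants lay above the wild types without overlap, as did the groups in 78.5% of all kept probe sets in one direction or the other. Without mutant 1, mutant 2, wild type 1 or wild type 2, the limma adjusted p of aox2 was 0.0754, 0.0856, 0.0903 and 0.0957. On the poly-A scale aox2 differed by 0.46 with a limma adjusted p of 0.236, and aox1 by -0.76 with 0.00803.

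Of the other genes around acetaldehyde and ethanol, 1 fell past the limma threshold and the others did not pass. Gene pdc1, the remaining named pyruvate decarboxylase, read 9.25 and 9.44 in the mutants against 9.72 and 10.51 in the wild types, which is -0.77 with a limma adjusted p of 0.0968. Gene fdh1, whose class III alcohol dehydrogenase acts on formaldehyde bound to glutathione, read 10.52 and 10.86 against 11.36 and 11.43. It fell by 0.71 (SE 0.15), with a limma adjusted p of 0.0238, which was 0.0526 with no filter on low values. So 1 of 2 genes fell, against 29.4% of the 781 genes. With any 1 of the 4 arrays left out, neither gene passed and 0 to 2 had an unadjusted p under 0.05 in limma. Of 4 measured genes for enzymes that can oxidise acetaldehyde or related aldehydes, none passed the limma test. An unadjusted p under 0.05 in limma was found in 3 of them, against 5599 of the 10458 kept probe sets. The mitochondrial aldehyde dehydrogenase genes rf2 and rf2b differed by -0.87 and -0.93, rf2c differed by 0.45 and the aldehyde oxidase gene ao1 by 0.82. The groups did not overlap in rf2, rf2b and ao1, and overlapped in rf2c, while 78.5% of all kept probe sets had no overlap. The limma adjusted p of ao1 was 0.0569, and it passed at 0.0396 with a value of 4 or more required on all arrays, at 0.0382 after quantile normalization and at 0.047 without a variance trend. After quantile normalization rf2 and rf2b also passed, at 0.0449 and 0.0451. On the poly-A scale rf2c turned to -0.79 and ao1 to -0.42, while rf2 and rf2b read -2.1 and -2.16. Gene rf2d was under 4 on all arrays, and no lactate dehydrogenase gene was among the named genes.

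A list drawn up for anaerobic polypeptide genes, without the fermentation genes, held more genes that were lower than higher. It takes in whole gene families, such as gpc1 to gpc4 and eno1 and eno2. Which of its members respond to low oxygen was not tested, so its count is not a measure of such a response. Falls numbered 7 and rises 2 among its 12 genes, and 3 missed the threshold. The median difference of the 12 genes was -0.51. Probe sets disagreed for sh1 and gpc1. For sh1 the counted probe set missed the threshold at -0.32, while another differed by -2.77 (limma adjusted p 0.0307). For gpc1 the counted probe set fell by 0.46, while another differed by -0.37 and did not pass (limma adjusted p 0.351). Among all 781 genes 29.4% fell and 20.9% rose, at a median of -0.18. The sucrose synthase gene sus1 read 9.24 and 9.1 in the mutants, against 11.35 and 11.78 in the wild types, and fell by 2.4 (SE 0.18), with a limma adjusted p of 0.00683. Of the glyceraldehyde phosphate dehydrogenase genes, gpc3 fell by 2.07 and gpc4 by 0.82. The enolase gene eno2 fell by 0.59. The rises were gpc2 at 0.35 and the phosphoglucose isomerase gene phi1 at 0.5. Both read below 0 on the poly-A scale, at -0.88 and -0.73. With no filter on low values 4 genes fell and 0 rose in limma, where 9 had an unadjusted p under 0.05, against 9182 of 17620 probe sets. The count without wild type 1 was 1 fall, and without mutant 1, mutant 2 or wild type 2 it was 0, where 8, 7 and 5 genes had an unadjusted p under 0.05 in limma.

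Among genes tied to oxygen or ethylene, only 2 were measurable on all arrays, and neither passed. These were aco20, for an oxidase that makes ethylene from its precursor with the use of oxygen, at -0.77, and the ethylene receptor gene etr2, at -0.21, and no gene of the 2 had an unadjusted p under 0.05 in limma. Another 2 genes, Hb, a haemoglobin of the kind that plants make when oxygen is short, and aco31, a further ethylene-forming oxidase, were above the limit of 4 in the mutants and under it in the wild types. Hb read 4.89 and 6.41 in the mutants, against 3.24 and 3.22 in the wild types, and was at least 3.14-fold higher. aco31 read 6.18 and 5.38 against 3.09 and 2.21 and was at least 3.43-fold higher. Like aox3, both passed the filter only through their mutant arrays and so had to differ, and they are given as values without a count. The haemoglobin gene hb2 was under 4 in both mutants, at 2.09 and 2.17, and at 3.69 and 5.08 in the wild types, and was removed by the filter.

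Pyruvate that is not fermented can be turned into acetyl-CoA by the pyruvate dehydrogenase complex inside the mitochondrion. In the list of that complex, 2 of 6 measured genes rose and 1 fell, while 3 missed the threshold, against 20.9% and 29.4% of the 781 genes. The rises were pdk1, a kinase that switches the complex off, at 0.85 (SE 0.23, limma adjusted p 0.0422), and LOC732791, at 0.91 (limma adjusted p 0.0328). With no filter on low values their adjusted p was 0.0833 and 0.0713, and they turned to -0.39 and -0.32 on the poly-A scale. A second measured probe set of pdk1 differed by 0.5 and did not pass (limma adjusted p 0.233). LOC732791 shares the symbol pdh1 with LOC541699, which differed by 0.33 with overlapping groups (limma adjusted p 0.265), and which of them is a subunit of the complex is not settled by the annotation used. The fall, at -2.16, was ppdk1, a pyruvate phosphate dikinase gene caught through a shared symbol, and pgd2, at 0.45 and not past, is a 6-phosphogluconate dehydrogenase caught the same way. Without these homonyms 2 of 4 genes rose. Only ppdk1 passed without wild type 1, and the count was 0 without mutant 1, mutant 2 or wild type 2, where 3, 1 and 2 genes had an unadjusted p under 0.05 in limma.

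A list drawn up for the cytochrome pathway and for mitochondrial carriers and membranes had 11 measured genes. They code for carriers, porins, prohibitins and an ATP synthase subunit, so the cytochrome pathway itself was not measured. Of the 11 genes 3 fell and 2 rose, while 6 missed the threshold, against 29.4% and 20.9% of the 781 genes. Their median was -0.54, against -0.18 for the 781 genes. Another 3 genes caught by the symbols of cytochrome c are cyclin genes and were under 4 on all arrays. The outer membrane porin gene vdac1b read 5.49 and 5.77 in the mutants, against 8.07 and 8.39 in the wild types, and fell by 2.6 (SE 0.2), with a limma adjusted p of 0.00683. The uncoupling protein gene pump, whose carrier lets protons back across the inner membrane without ATP synthesis, read 7.26 and 6.35 against 8.15 and 8.47 and fell by 1.51, with a limma adjusted p of 0.03, which was 0.0766 with no filter on low values. Its direction was opposite to that of aox2. The adenine nucleotide carrier gene ant2 fell by 0.58. The rises were the prohibitin genes phb3 at 0.87 and phb1 at 0.43, which turned to -0.37 and -0.81 on the poly-A scale. A second measured probe set of phb1 differed by 0.39 and did not pass (limma adjusted p 0.276). Without wild type 1 the count was 2 falls, and without mutant 1, mutant 2 or wild type 2 it was 0, where 5, 7 and 4 genes had an unadjusted p under 0.05 in limma.

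Enzymes that remove superoxide and peroxide, by-products of respiration that alternative oxidase is known to limit, gave 1 rise and 1 fall among 7 measured genes, with a median of 0.05, against 20.9% higher and 29.4% lower of the 781 genes. The catalase gene cat1 rose by 0.96 (SE 0.17, limma adjusted p 0.0165). It read -0.28 when centred on the poly-A controls and -0.6 in its second measured probe set. The catalase gene cat2 fell by 1.01 (limma adjusted p 0.0155). The mitochondrial superoxide dismutase gene sod3 read 0.18 and the ascorbate peroxidase gene apx2 read -0.22, and neither passed. Neither catalase passed with any 1 of the 4 arrays left out, when 2 or 3 of the 7 genes had an unadjusted p under 0.05 in limma.

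**Figure D3:**
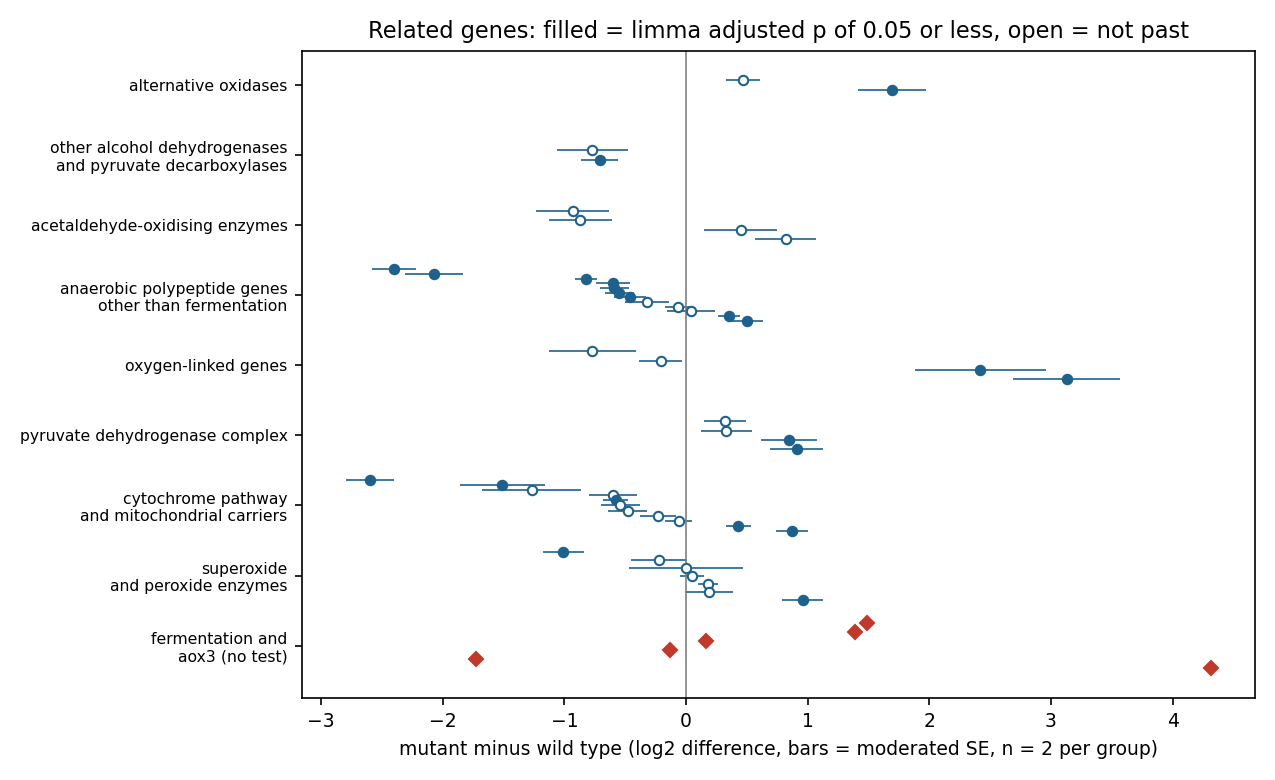
Mutant minus wild-type difference (log2, horizontal axis) of each measured related gene by list, with bars for the moderated SE (n = 2 per group), filled points at a limma adjusted p of 0.05 or less, and the 6 kept probe sets of the 5 genes as red diamonds without a test; genes caught by a shared symbol are left out. The Hb and aco31 points passed the filter only through the mutant arrays. The list named for the cytochrome pathway and mitochondrial carriers holds no measured gene of the cytochrome pathway itself. The alternative oxidase points lie at 0.47 and 1.69. In the list of anaerobic polypeptide genes 9 of the 12 points lie below 0, where the median of all 781 genes is -0.18.

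The named genes whose pattern was nearest to each member were found by the Euclidean distance between values centred on their mean over the 4 arrays, among 711 genes. With 4 arrays in 2 groups, this measure mostly finds genes with a like difference. The nearest to aox3 were mrpa1, an ABC transporter gene, at a distance of 0.475, the cell wall invertase gene incw1 at 0.53 and the safener-induced gene saf1 at 0.735. Of these, saf1 too had wild-type values under 4, at 3.88 and 3.23. The nearest to adh2 was pump at 0.28, followed by a calmodulin gene at 0.346 and smt1 at 0.347. These 3 genes, like adh2, read lower in mutant 2 than in mutant 1. For the first probe set of pdc2 they were met4 at 0.108, SRP2B at 0.142 and pglcat8 at 0.161. For pdc3 the nearest was RPL10, a ribosomal protein gene, at 0.017, followed by the aldehyde dehydrogenase gene ALDH10A9 at 0.064. For adh1 the nearest were pco123247b at 0.03, grp1 at 0.054 and mek1 at 0.057.

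**Figure D4:**
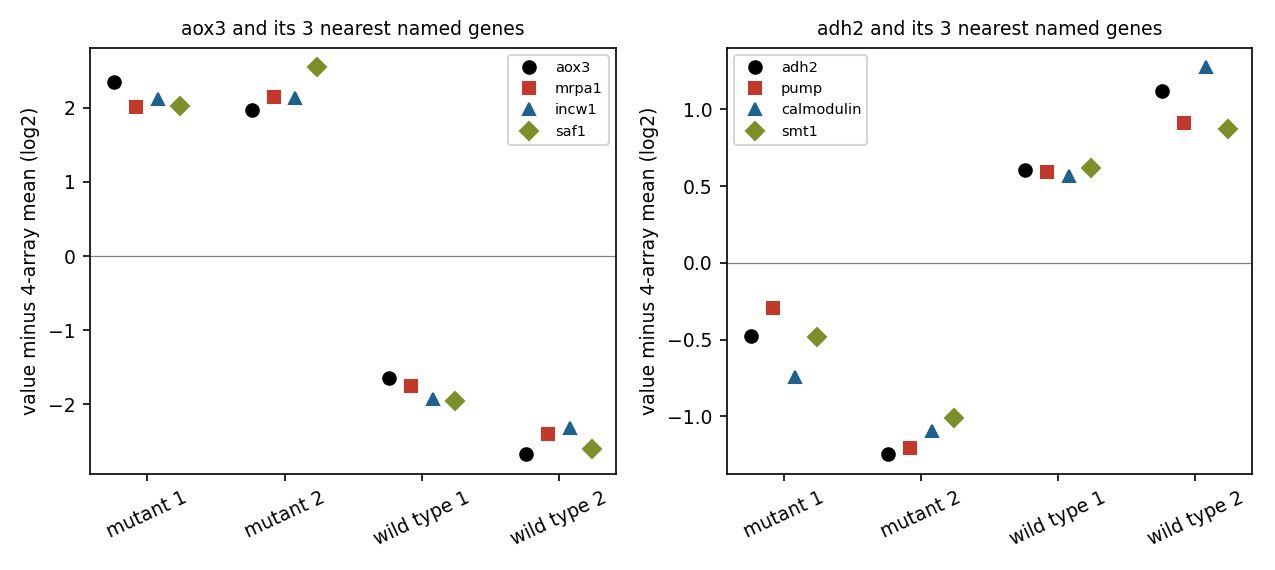
Value on each array minus the mean over the 4 arrays (log2, vertical axis) for aox3 with its 3 nearest named genes (left) and adh2 with its 3 nearest (right), 1 point per gene and array. On the right, adh2 and its 3 neighbours lie lower in mutant 2 than in mutant 1, with adh2 at 7.65 against 8.42.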

How the data were processed

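The deposited table holds 1 log2 value per probe set and array, made by the authors with GCRMA per the submitters' processing notes; the sources used here give neither its version nor whether normalization was done on all arrays at once. The log base was read from the values, 1.31 to 15.44. Of 17734 probe sets, 113 array controls and 1 without values were left out. Names came from the platform annotation, updated by Entrez identifier through a RefSeq table of Zm-B73-REFERENCE-NAM-5.0, which matched 1060 of 1108 genes. No build is named, so no coordinates are given.

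Probe sets with a value of 4 or more on at least 2 of 4 arrays were kept (10458) and fitted with limma 3.58.1 in R 4.3.3 (lmFit, eBayes with trend, two-sided). The p-values were adjusted by Benjamini-Hochberg over all kept probe sets, and 0.05 was the threshold. Standard errors (SE) are moderated ones. In lists, a gene counts by its probe set of highest mean, and a level is the log2 of the summed linear values. Where a whole group lay under 4, the fold is a bound against 4.

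The members and lists were chosen with earlier results of these data known. Named were all members, every gene of the short lists of alternative oxidase, other fermentation and aldehyde genes, up to 4 genes per remaining list by smallest p, and 3 nearest patterns per member; gpc2, phi1, hb2 and a few others were named after their values were seen. Alternatives changed the filter, scaling, variance model, array weights, pseudocount, replicate block and each array left out. The fit was run on simulated data with an equal spread in all probe sets and few of them changed. That setting differs from these data, so the run checked the computation only. Plots used matplotlib 3.10.9. The number of arrays limits the precision.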

Additional observations from a re-analysis of the deposited data

Results flagged for a closer look

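The poly-A control probe sets entered no comparison between the groups and gave more signal in the mutant samples than in the wild types, by a median log2 difference of 1.2 and in 36 of 36 probe sets, which read only 4 bacterial RNAs. Their mean was 7.668 and 7.614 on the mutant arrays and 6.4 and 6.395 on the wild-type arrays. The hybridisation controls differed by a median of 0.135 over 27 probe sets.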

How the results depend on the processing

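The counts were sensitive to scaling and to single arrays. The 48 related genes include ppdk1 and pgd2, caught through shared symbols, and Hb and aco31, kept by the filter only through the mutant arrays. Of the 48 genes, 23 passed in limma, 10 higher and 13 lower, against 20.9% higher and 29.4% lower of the 781 genes. The 10 include Hb and aco31, which had to be higher to enter. Counted by probe set, 30 of 59 passed, 10 higher and 20 lower, against 21% and 22.1% of all kept probe sets. With no filter on low values 15 genes passed. Centred on the poly-A controls 41 genes passed, 39 lower and 2 higher, and these 2 were Hb and aco31. Over all probe sets that scaling gave 8536 calls, 304 higher and 8232 lower, against 4514. Leaving out each array in turn gave 0 to 4 related genes and 0 to 1195 probe sets; the zeros were without mutant 1, mutant 2 or wild type 2, where 4523, 4617 and 3633 probe sets and 26, 25 and 15 related genes had an unadjusted p under 0.05. With 1 array left in a group, that array was assumed to vary like the other group. On the poly-A scale the differences of aox1, rf2c, ao1, gpc2, phi1 and LOC541699 turned to -0.76, -0.79, -0.42, -0.88, -0.73 and -0.9. Those of pdk1, LOC732791, pgd2, phb3, sod3 and cat1 turned to -0.39, -0.32, -0.78, -0.37, -1.06 and -0.28. Those of phb1, pdh2, sus2, sod2 and sod4a turned to -0.81, -0.91, -1.19, -1.05 and -1.19. These turns follow from the shift of -1.23 that this scaling applies. The numbers of the replicates did not pair the samples by the labels, and the deviations of arrays with the same number correlated at 0.0213. With the replicate number as a block, 3444 probe sets and 19 related genes passed, 16 of them among the 23, and the adjusted p of pdk1, LOC732791 and pump was 0.0861, 0.0725 and 0.0698. With each array left out, the differences of pdc2, adh2 and aox3 kept their sign, as they must where the groups do not overlap. Those of pdc3 and adh1, whose groups overlapped, ran from 0.07 to 0.24 and from -0.29 to 0.04.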
